A study of Mus musculus with 25 samples.

Results

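Gene expression at 24 h of reperfusion was compared with sham in the Ly6C Intermediate fraction of CD11b+ cells sorted from mouse kidneys. The members were chosen by their source labels: 3 arrays labelled 24 h and 2 arrays labelled Sham1 and Sham2, which are 5 of the 25 arrays of the series, with 1 array per animal. The 24 h group came from male C57BL/6 mice aged 8 to 10 weeks whose renal vessels were clamped on both sides for 28 min, and whose kidneys were taken 24 h after the clamps were released. The sham group came from mice of the same strain, sex and age that had the same surgery without clamping, and the labels do not say how long after surgery these kidneys were taken. All animals received saline and buprenorphine, an opioid painkiller, and all cells were sorted by CD11b, the integrin chain that marks myeloid cells, and by Ly6C, a surface protein carried at different levels by monocyte and macrophage subsets. RNA was amplified from small amounts and hybridised to Affymetrix arrays with 45101 probe sets. Values below are the deposited log2 expression values unless stated otherwise, and each probe set also carries the deposited call of present, marginal or absent. The probe set with the highest mean over the arrays of the model stood for its gene, and values and calls of a gene are those of that probe set unless stated otherwise.

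After blood flow returns to a kidney, dying tubule cells release signals that draw neutrophils and monocytes from the blood, and the incoming monocytes mature into macrophages within the tissue. These cells make chemokines that bring in further leukocytes, take up debris and damaged lipids through scavenger receptors, and switch over days from inflammatory programmes to programmes of repair. Arginase 1, which breaks down arginine, is widely used as a marker of the repair-like state, and tubule cells are marked by transporters that recover salts, sugars and proteins from the filtrate.

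The 3 arrays at 24 h, from replicates 7, 8 and 9, had 19.2%, 10.1% and 11.4% of probe sets called present, against 15.9% and 22.2% on sham replicates 1 and 2. Sham replicate 1 stood apart in RNA quality. Its ratio of 3' to 5' signal for Gapdh, a measure that grows with shortening of the RNA or of its copies, was 431, while the ratio was 3.30 to 10.0 at 24 h and 3.93 on sham replicate 2. For actin it was 183 there, against 2.22 to 6.45 at 24 h and 2.83 on sham replicate 2. Pearson correlations of all probe sets were 0.743 to 0.783 between the 24 h arrays and 0.737 between the sham arrays. The labels number the animals and say nothing of separate sorts or days, so p-values measure a spread between arrays. That spread was estimated from the arrays of all groups in the model, and not from the arrays compared here alone. By their numbers, the sham, 4 h and 9 day animals each gave arrays of more than 1 gate to the model, and these arrays were treated as independent. The small number of arrays compared limits the precision.

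Both groups carried the transcripts of the sort. The probe set that Ly6c1 and Ly6c2 have in common averaged 11.12 ± 0.12 at 24 h (SD, n = 3) and 10.96 ± 0.99 in sham (SD, n = 2), and it was called present on all 5 arrays. The probe set of Itgam, the CD11b gene, stayed low, at 2.14, 5.52 and 4.07 at 24 h and 2.73 and 2.43 in sham. It therefore gives little information on the gate. Of 8 measured sort and pan-leukocyte genes, 7 or 8 were called present on each 24 h array and 6 or 8 on each sham array, and 0 of 8 passed the test. Tyrobp, an adaptor of myeloid receptors, differed by 0.21 ± 1.18 (log2 difference, 24 h minus sham, ± SE), Fcer1g, the Fc receptor gamma chain, by 0.53 ± 1.50, Ptprc, the pan-leukocyte CD45 gene, by 0.51 ± 1.59, and Itgb2, the CD18 integrin chain, by -2.33 ± 2.16. The macrophage genes Csf1r (0.74 ± 1.38), Spi1 (0.39 ± 1.14) and Lyz2 (-0.11 ± 1.44) had differences smaller than their errors on the probe sets used. A further probe set of Csf1r, present on both sham arrays and on no 24 h array, averaged 5.32 at 24 h and 8.16 in sham (-2.84). Another, present on 2 arrays at 24 h and 1 in sham, had a difference of 0.46.

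The cell type label of all these samples is macrophage, yet genes known from neutrophils were called present in both groups. Of 20 measured neutrophil genes, 16 or 17 were called present on each 24 h array and 16 on each sham array. Their summed linear level was 122910 to 141900 at 24 h and 99923 to 105768 in sham. The alarmin gene S100a8 lay at 14.65, 14.74 and 14.64 at 24 h and 14.81 and 14.74 in sham, and its partner S100a9 at 14.73, 14.78 and 14.73 at 24 h and 14.82 and 14.78 in sham. Csf3r, the receptor for the neutrophil growth factor G-CSF, lay at 8.61, 9.90 and 8.66 at 24 h and 9.94 and 9.18 in sham. The fraction is therefore called by its gate here and not by a cell type. Of the 16 neutrophil genes tested, 0 passed, 12 lay above 0 and the median difference was 0.65. The smallest p in this list belonged to Trem1, an amplifying receptor of neutrophils and monocytes (3.51 ± 1.51, adjusted p = 0.255), followed by Wfdc21, a whey-acidic-protein family member (1.30 ± 1.08), and G0s2, an inhibitor of triglyceride lipase (1.52 ± 1.28). Trem1 was the 1 of the 16 whose probe set was present on enough arrays at 24 h only, and 0 entered only through sham. A second probe set of Trem1, present on 3 arrays at 24 h and 2 in sham, had a difference of 2.70.

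Of 3860 genes tested between 24 h and sham, 80 passed at an adjusted p under 0.05 (2.07%), with 9 higher at 24 h (0.233%) and 71 lower (1.84%). The test was limma's moderated test with Benjamini-Hochberg adjustment, in a model over 21 arrays of 8 groups, so that the spread between arrays was estimated from every group. At an unadjusted p under 0.05 there were 624 genes. The values of the groups did not overlap for any of the 80, and over all genes tested non-overlap was seen for 12.5% in the higher direction and 19.4% in the lower direction. A gene was tested if it was called present on at least 2 of the 3 arrays at 24 h or on both sham arrays. Of the 80 genes 79 passed this filter only through the group in which they were high, so non-overlap was in part built in. Without the filter 43 of 18194 genes passed, 2 higher and 41 lower, and 34 of them were among the 80. In sorted bulk RNA, fewer cells of a type and less RNA per cell cannot be told apart.

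**Figure D1:**
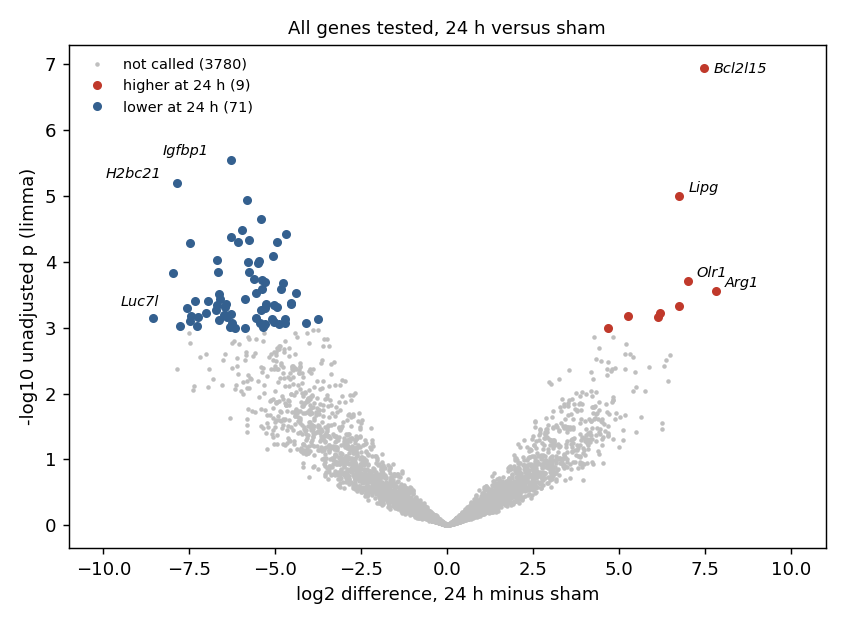
All 3860 genes tested, by the log2 difference of 24 h minus sham (x axis) and the -log10 of the unadjusted limma p (y axis). Red points are the 9 genes higher at 24 h, blue points the 71 genes lower at 24 h, and grey points the genes that were not called. Bcl2l15 stands at the top right and Igfbp1 at the top left.

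The number of calls rested on single arrays. Without sham replicate 1, the array with the high 3' to 5' ratio, 2 genes passed, Bcl2l15 higher and Osbpl3 lower. Leaving out sham replicate 2 left 6 calls, and leaving out 24 h replicates 7, 8 or 9 left 51, 22 and 22 calls. When sham replicate 1 and the 3 arrays of low yield in other groups were all left out, 79 genes passed, 21 higher and 58 lower, and 41 of these were among the 80. The split between higher and lower also depended on the scaling. Of the calls 11.25% were higher in the deposited values, 33.3% in the deposited signals (6 higher, 12 lower), 51.9% after centring each array on its median (14 higher, 13 lower) and 29.4% with array yield as a covariate (35 higher, 84 lower). Centring and the yield covariate each moved the median difference of all genes tested to 0.42 from -0.11.

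**Figure D2:**
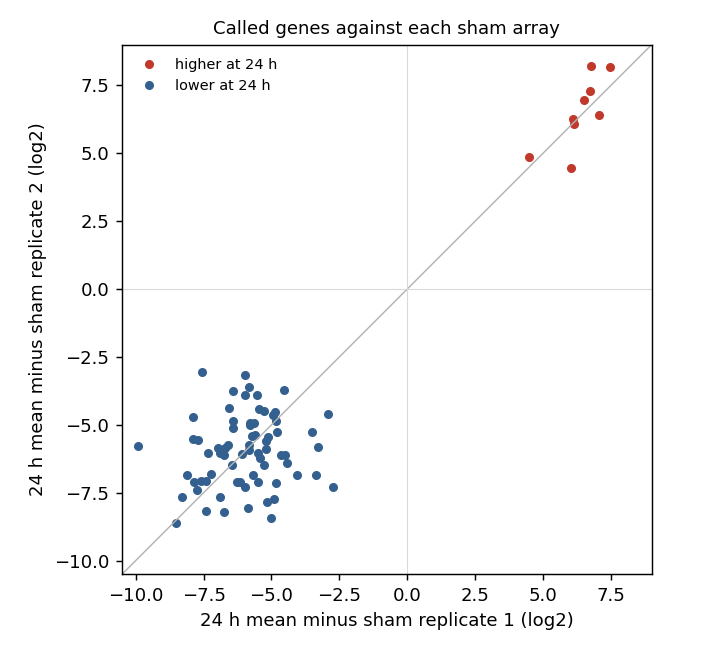
The 80 called genes, each as the mean of the 3 arrays at 24 h minus sham replicate 1 (x axis) and minus sham replicate 2 (y axis), in log2 units, with the line of equality in grey. Against each sham array alone the 9 higher genes lie between 4.46 and 8.20 and the 71 lower genes between -9.92 and -2.75.

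The 9 genes that rose at 24 h belong to arginine and lipid metabolism, chemokine signalling and cell death control, or encode intracellular proteins with other roles. On the probe sets that stood for them, all 9 were called present on every 24 h array and absent on both sham arrays, and their median log2 difference was 6.74. Among all 3860 genes tested, 39 were present on every 24 h array and on no sham array. The 9 differed in how often they passed over the 20 alternatives: Bcl2l15 in 19, Lipg in 16, Olr1 in 12, Arg1 and Bloc1s2 in 11, Ccl7 in 9, Ppp2cb in 8, Pank2 in 7 and Ctnnbip1 in 5. The fold changes below were computed with the values of the dim group raised to the lowest value called present on each array. The dim group was sham for the higher genes and 24 h for the lower genes. Those lowest values were 1.69 to 2.20 on the 5 arrays, below sham values of 5.46 and 5.52 that were called absent. The folds are point estimates that leave out the spread between arrays, and not minima of the true fold. For Bcl2l15 the raising lowered the fold to 172 from 178. For Arg1, Ccl7, Olr1, Lipg, Lrp2 and Igfbp1 it changed nothing, so their folds are those of the deposited values.

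**Figure D3:**
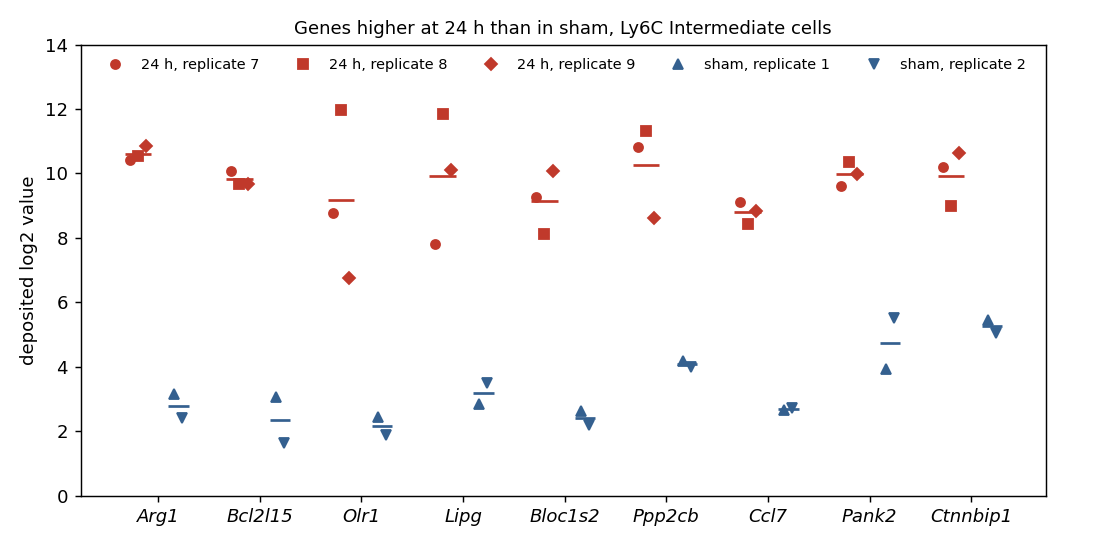
Deposited log2 values (y axis) of the 9 genes higher at 24 h (x axis), with the 24 h arrays in red and the sham arrays in blue to their right. Each symbol is 1 array and each short line a group mean. Every gene has its lowest 24 h value above its highest sham value.

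Bcl2l15, a member of the BCL2 family of cell death regulators, had the smallest p of all genes tested. It lay at 10.09, 9.69 and 9.68 at 24 h, against 3.06 and 1.62 in sham. The 24 h arrays were nearly level and far above both sham arrays. The difference was 7.48 ± 0.90 (adjusted p = 4.35e-04), about 172-fold higher. In the model of the 5 arrays alone, where it did not pass, its adjusted p was 0.077, with 7.48 as the difference.

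Arg1, the cytosolic arginase, showed the largest difference. Its values were 10.40, 10.55 and 10.87 at 24 h and 3.15 and 2.42 in sham, so every 24 h array was high and both sham arrays were absent. The difference was 7.82 ± 1.75 (adjusted p = 0.0365), about 226-fold higher. Ccl7, a chemokine that attracts monocytes through Ccr2, behaved alike within its groups. It lay at 9.12, 8.43 and 8.83 at 24 h and at 2.64 and 2.71 in sham, and was higher by 6.12 ± 1.51 (adjusted p = 0.0452), about 69.3-fold.

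The lipid genes were less even across the 24 h animals. Olr1, which encodes the scavenger receptor LOX-1 for oxidised low-density lipoprotein, lay at 8.77, 11.97 and 6.76 at 24 h and 2.45 and 1.89 in sham. Its difference was 7.00 ± 1.51 (adjusted p = 0.0311), about 128-fold higher. Lipg, which encodes endothelial lipase, a secreted phospholipase of lipoproteins, lay at 7.81, 11.86 and 10.11 at 24 h and 2.86 and 3.51 in sham. For both genes replicate 8 was the highest and the spread at 24 h was wide, but the lowest 24 h array stayed well above sham. Lipg differed by 6.74 ± 1.12 (adjusted p = 0.009), about 107-fold. A further probe set of Lipg called present on all 24 h arrays and on no sham array had a difference of 8.16, while its dimmest, present on no array, had -0.16.

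The other 4 genes that rose encode intracellular proteins with different roles. Bloc1s2, a subunit of complexes that build and position lysosome-related organelles, was higher by 6.74 ± 1.59 (adjusted p = 0.0416). Ppp2cb, a catalytic subunit of protein phosphatase PP2A, was higher by 6.18 ± 1.50, Pank2, a pantothenate kinase of coenzyme A synthesis, by 5.25 ± 1.29 (adjusted p = 0.0452 each), and Ctnnbip1, an inhibitor of beta-catenin, by 4.67 ± 1.20 (adjusted p = 0.0493). The sham values of Ctnnbip1 and Pank2 reached 5.46 and 5.52 and were still called absent. When the probe sets of each gene were averaged, Pank2 differed by 1.68 and Ppp2cb by 3.34, and neither passed. A further probe set of Pank2, present on 1 sham array and on no 24 h array, had a difference of -0.78, and the second one of Ppp2cb, present on no array, had 0.51. The next gene in order of p, Tmem60, was not called (4.71 ± 1.22, adjusted p = 0.052).

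The 250 bases before the annotated start are shown for the genes with the smallest p in each direction and for Olr1, the riser whose window holds an AP-1 motif. They come from RefSeq (GRCm38.p6) and are printed 5' to 3' along the gene's strand, with the motif match in capitals. The windows are chr3:103832446-103832695 on the plus strand for Bcl2l15, chr6:129507166-129507415 on the minus strand for Olr1, and chr11:7197537-7197786 on the plus strand for Igfbp1.
Bcl2l15: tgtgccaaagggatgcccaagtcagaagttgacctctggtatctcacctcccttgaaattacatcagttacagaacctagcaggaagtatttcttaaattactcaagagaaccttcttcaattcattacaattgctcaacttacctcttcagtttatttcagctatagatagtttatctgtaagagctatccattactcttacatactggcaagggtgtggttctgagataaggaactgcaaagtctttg
Olr1: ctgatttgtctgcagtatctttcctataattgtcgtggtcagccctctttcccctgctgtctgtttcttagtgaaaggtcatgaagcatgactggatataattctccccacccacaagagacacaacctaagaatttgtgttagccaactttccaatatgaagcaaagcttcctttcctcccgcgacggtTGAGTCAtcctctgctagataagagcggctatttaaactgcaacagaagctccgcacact
Igfbp1: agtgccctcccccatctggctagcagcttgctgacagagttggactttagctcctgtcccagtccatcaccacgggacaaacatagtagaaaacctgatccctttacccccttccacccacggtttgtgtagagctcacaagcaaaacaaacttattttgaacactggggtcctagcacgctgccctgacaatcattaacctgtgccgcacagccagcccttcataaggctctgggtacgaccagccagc
The capitals in Olr1 mark a match to TGACTCA, the AP-1 element, read on the other strand, beginning 60 bases before the start; the same letters match TGANTCA. Promoters were found for 5 of the 9 higher and 53 of the 71 lower genes. TGACTCA, searched on both strands, was in 1 of the 5 (20%), 0 of the 53 and 4.43% of all 27025 promoters of this length, and TGANTCA in 1 of 5, 1 of 53 (1.89%) and 6.87%. ACGTG was in 20% of the higher, 20.8% of the lower and 16.6% of all promoters. TTCNNNGAA was in 0 of 5, 3.77% and 7.18%, and TATAAA in 0 of 5, 5.66% and 13%. The NF-kB element, in a strict and a relaxed form, was in none of the promoters of called genes, and in 0.13% and 0.337% of all. A match is a description of letters and not of a site in use.

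The 71 genes that fell at 24 h included transporters and enzymes known from the kidney tubule. Their median log2 difference was -5.81, and they ranged from -8.57 to -3.76. Of the 71, 58 were absent or marginal on all 3 arrays at 24 h, 12 were present on 1 array and 1 on 2 arrays. Among all 3860 genes tested, 428 were present on both sham arrays and on no 24 h array. They are described below as transporters, enzymes, secreted and epithelial proteins, and chromatin regulators. These groups were formed from the called genes after the values were seen. How many such genes were among the 3860 tested was not counted, so the group sizes only describe the 71, and 35 of the 71 are in none of them. Over the 20 alternatives the lower genes named here passed in 4 (Aass) to 18 (Igfbp1), leaving aside 2610005L07Rik, Ndufa10 and Dnase2a.

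Transport and uptake proteins made up 11 of the 71, all lower by 5.10 to 7.47 on the log2 scale. Lrp2, which encodes megalin, the receptor that recovers filtered protein in the proximal tubule, lay at 3.19, 3.73 and 2.88 at 24 h and 8.74 and 10.36 in sham, and was absent on every 24 h array. The difference was -6.28 ± 1.18 (adjusted p = 0.0157), about 78.0-fold lower. Slc5a12, a sodium-coupled lactate transporter, lay at 2.10, 2.11 and 2.65 at 24 h and 9.04 and 10.49 in sham, so its 24 h arrays were level near the bottom of the scale. It fell by 7.47 ± 1.43 (adjusted p = 0.0157). Slc34a1, the sodium-phosphate cotransporter of the proximal tubule, lay at 7.03, 4.39 and 2.86 at 24 h and 11.52 and 10.85 in sham, and Slc5a2, the glucose transporter SGLT2, at 6.92, 3.77 and 4.63 at 24 h and 11.55 and 11.58 in sham. Replicate 7, the 24 h array with the most probe sets present, was the one on which both were still present. The others were Slc17a1, a phosphate and anion transporter (-6.71 ± 1.35), Slc22a2, an organic cation transporter (-5.81 ± 0.98), Folr1, a folate receptor (-5.77 ± 1.09), Slc5a3, a myo-inositol transporter, Kcne1, a potassium channel subunit, and the ammonium transporters Rhbg and Rhcg.

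Metabolic and detoxifying enzymes made up 10 of the 71, lower by 4.95 to 7.01 on the log2 scale. Fbp1, an enzyme of gluconeogenesis, lay at 3.57, 2.25 and 6.71 at 24 h and 11.40 and 10.98 in sham. It fell by 7.01 ± 1.70 (adjusted p = 0.0452). The rest were the carboxylesterases Ces1d and Ces1f, the glutathione transferases Gstm2 and Gstt3, the UDP-glycosyltransferases Ugt2b38 and Ugt8a, the aldo-keto reductase Akr1c21, the lysine-degrading enzyme Aass and the cytochrome Cyp2d26. Igfbp1, a secreted binding protein for insulin-like growth factors known from liver and kidney, is in none of these groups and had the smallest p of the genes that fell. Its values were 2.50, 2.78 and 2.94 at 24 h and 9.46 and 8.59 in sham, and its difference was -6.28 ± 0.95 (adjusted p = 0.0056), about 77.9-fold lower.

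Epithelial surface, matrix and secreted proteins made up 8 of the 71. Kng1, a kininogen, lay at 4.99, 4.37 and 3.35 at 24 h and 11.99 and 11.63 in sham (-7.57 ± 1.80, adjusted p = 0.0416). Egf, the growth factor secreted by the distal nephron, lay at 4.26, 5.06 and 3.32 at 24 h and 9.37 and 12.05 in sham (-6.50 ± 1.59, adjusted p = 0.0452). Both were separated from sham by several log2 units, and Egf was called present on replicate 8 only among the 24 h arrays. Pcolce, an enhancer of procollagen processing (-7.28 ± 1.85), Col4a4, a basement membrane collagen, Cldn7, a tight junction claudin, Muc1, an epithelial mucin, Tinag, a basement membrane protein of tubules, and Sostdc1, a secreted BMP and Wnt antagonist, completed the group.

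Chromatin and transcription genes made up 7 of the 71, and the probe sets that stood for them were absent or marginal on every 24 h array. Hdac2, a histone deacetylase, lay at 3.92, 3.91 and 4.04 at 24 h and 10.03 and 10.04 in sham, and was the most even of them. It fell by 6.08 ± 1.16 (adjusted p = 0.0157), but by only 1.34 when the probe sets of the gene were averaged (adjusted p = 0.428). H2bc21, a histone H2B gene, fell by 7.85 ± 1.26 (adjusted p = 0.0083), with sham values of 11.74 and 7.60 that differed widely. Kat7, a histone acetyltransferase, Kdm6a, a histone demethylase, Setd5, a SET domain protein, Gatad2a, a subunit of the NuRD complex, and Med17, a Mediator subunit, also fell. With averaged probe sets Kat7 (-1.81), Kdm6a (-1.84), Setd5 (-2.16) and Gatad2a (-2.45) did not pass, while Med17 (-2.87) and H2bc21 (-5.29) did. Further probe sets lay above sham and were present at 24 h, on 2 arrays for Gatad2a (1.65) and on 1 array for Hdac2 (1.70) and Kat7 (0.19).

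The largest falls of named genes outside these groups were of Luc7l, a splicing factor, Cnn3, an actin-binding calponin, Arhgap11a, Hsp90b1, the endoplasmic reticulum chaperone GRP94, Raph1, a regulator of lamellipodia, Lpl, lipoprotein lipase, Dst, a cytoskeletal linker, Ik, a splicing factor, and Ivns1abp, a kelch-repeat protein. 2610005L07Rik, which has only a clone name, fell by 6.96 (adjusted p = 0.0416) and is mentioned after its value was seen. Luc7l lay at 2.42, 3.25 and 2.90 at 24 h and 11.38 and 11.47 in sham (-8.57 ± 2.12, adjusted p = 0.0452), the largest fall of all. Its other 5 probe sets were absent in both groups, and the difference was -1.21 when all were averaged. Lpl lay at 2.83, 2.91 and 3.75 at 24 h and 10.77 and 10.24 in sham (-7.34 ± 1.70, adjusted p = 0.0416), and its second probe set showed -4.68. Hsp90b1 differed between its probe sets, with -7.48 for the brightest and -0.06 for another that passed the filter. Ivns1abp was the 1 gene of the 80 that passed the filter through both groups (-6.70 ± 1.57, adjusted p = 0.0416). The 44 called genes with several probe sets had 85 further ones, of which 58 lay on the same side of 0 as the one used and 27 on the other side; 63 of the 85 did not pass the filter. Among the lower genes with no tubule role, Nlrp12, a regulator of inflammatory signalling in myeloid cells (-5.79 ± 1.17), and Cd34, a surface protein of progenitors and endothelium (-4.40 ± 0.99), were picked out after their values were seen.

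The tubule signal was not limited to called genes. Of 23 measured kidney tubule genes, 13, 4 and 6 were called present on 24 h replicates 7, 8 and 9, and 22 on each sham array. Their summed linear level was 11562 to 18188 at 24 h and 62836 to 79869 in sham. Of the 22 tested, 22 lay below 0 and 4 passed (Lrp2, Slc5a12, Slc34a1 and Slc5a2), where 1.84% of all genes did. The median of the list was -4.65 and that of all genes tested -0.11. Since 16 of the 22 were tested only through sham, their differences were partly set by the filter. Under the alternatives the list median lay between -6.11 and -2.91, and without sham replicate 1 it was -4.83, so it was as low without that array. Umod, the uromodulin of the loop of Henle, lay at 9.73, 3.88 and 7.34 at 24 h and 12.81 and 12.80 in sham (-5.82 ± 1.89, adjusted p = 0.117), and Aqp1, a water channel, at 2.43, 7.94 and 3.41 at 24 h and 9.10 and 8.74 in sham. Some tubule transcripts stayed present: Kap, an androgen-regulated proximal tubule gene, was at 12.33, 11.89 and 12.28 at 24 h and 13.66 and 13.58 in sham, and Gpx3 and Fxyd2 were present on all 5 arrays. CD11b+ cells do not normally make these transporters, and the part of tubule RNA in the lower calls was not tested.

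**Figure D4:**
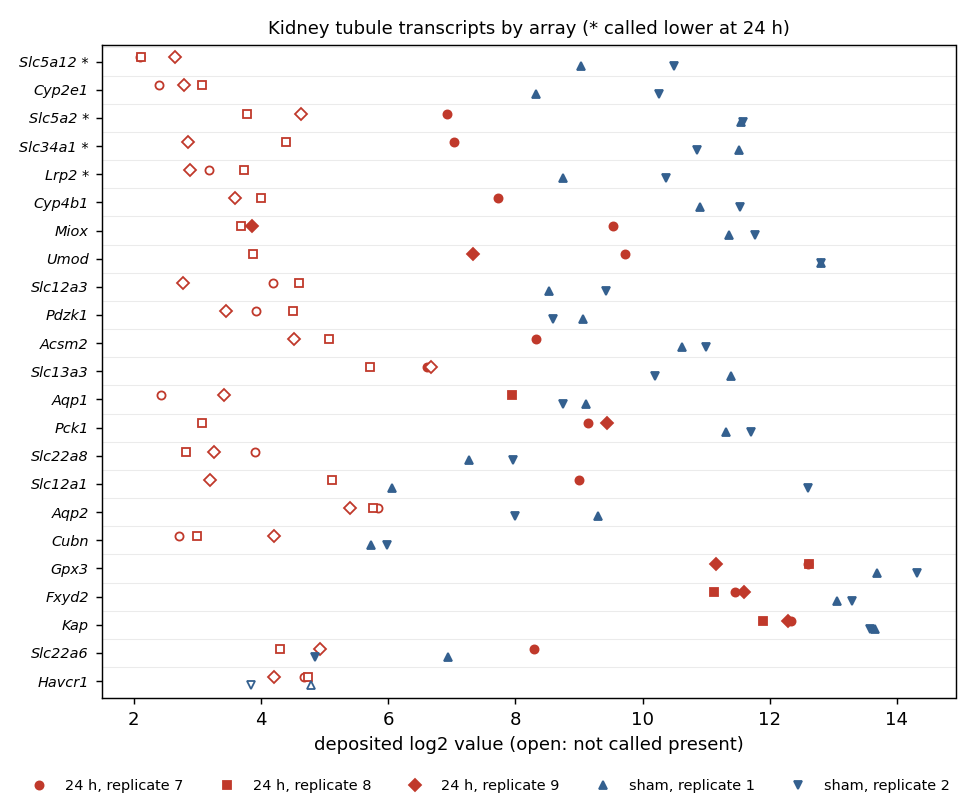
Deposited log2 values (x axis) of the 23 measured kidney tubule genes (y axis), with the 24 h arrays in red above the sham arrays in blue for each gene. Filled symbols were called present and open symbols were not, and asterisks mark the 4 genes called lower at 24 h. Of the 23 genes, 4 to 13 are present on a 24 h array and 22 on each sham array.

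Of 14 chemokine ligands tested, Ccl7 was the 1 that passed, where 0.233% of all genes passed in this direction. Of the 14, 13 lay above 0 with a median of 2.04, and 5 were tested only through the 24 h arrays, Ccl7 and Ccl12 among them. Ccl2, the main ligand of Ccr2, lay at 11.86, 10.35 and 11.33 at 24 h and 9.78 and 4.46 in sham (4.06 ± 1.99, adjusted p = 0.326). Its sham arrays differed by more than 5 log2 units from each other. Ccl12, a mouse relative of Ccl2, lay at 9.22, 10.67 and 3.13 at 24 h and 3.06 and 3.31 in sham (4.49 ± 2.24, adjusted p = 0.336), so replicate 9 was level with sham. Among receptors, 7 of 9 lay above 0 (median 1.04) and 0 passed. Of the 9, 2 were tested only through the 24 h arrays and 1 only through sham. Cxcr3, a receptor for interferon-induced chemokines, differed by 2.88 ± 1.27, and Ccrl2, a non-signalling chemerin receptor, by 1.67 ± 1.46.

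Among these ligands are both tested genes of the erythrocyte and platelet list. Ppbp, the platelet basic protein, lay at 8.77, 9.94 and 7.79 at 24 h and 4.04 and 6.15 in sham (3.74 ± 1.30, adjusted p = 0.148). Pf4, platelet factor 4, lay at 12.53, 12.20 and 12.81 at 24 h and 10.01 and 7.76 in sham (3.63 ± 1.93, adjusted p = 0.371). In both genes the 24 h arrays were above the sham arrays without overlap, and neither passed the test. Over all genes tested, non-overlap in this direction was seen for 12.5%, and Ppbp was tested only through the 24 h arrays. Of 8 measured erythrocyte and platelet genes, 2 were present on each 24 h array and 1 or 2 on the sham arrays. On the 24 h arrays these were Ppbp and Pf4. The summed linear level of the 8 was 5809 to 7575 at 24 h and 380 to 1144 in sham. Ppbp and Pf4 are part of this sum, so it is not separate from the values above.

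Of 10 alternative activation and repair genes tested, 6 lay above 0 (median 0.47), and Arg1 was the 1 that passed, where 0.233% of all genes did; 4 of the 10 were tested only through the 24 h arrays. Chil3, a chitinase-like protein of monocytes and macrophages, lay at 13.36, 13.10 and 13.36 at 24 h and 11.11 and 9.36 in sham (3.04 ± 1.23, adjusted p = 0.219). Fn1, fibronectin, lay at 8.18, 6.04 and 9.27 at 24 h and 3.48 and 4.30 in sham (3.94 ± 2.14, adjusted p = 0.391). In the matrix remodelling list 10 of 11 tested genes lay above 0 with a median of 2.07, and 0 passed; 6 of the 11 were tested only through the 24 h arrays. Thbs1, the matricellular protein thrombospondin 1, lay at 9.42, 11.78 and 8.85 at 24 h and 5.90 and 6.41 in sham (3.86 ± 1.36, adjusted p = 0.155). Mmp19, a metalloproteinase, lay at 7.60, 11.19 and 6.19 at 24 h and 2.29 and 1.89 in sham (6.24 ± 2.74, adjusted p = 0.261). Every 24 h array of both genes lay above the sham arrays, and so did those of Timp1, an inhibitor of metalloproteinases (3.04 ± 1.68). Thbs1, Mmp19 and Timp1 were each tested only through the 24 h arrays. Non-overlap in the higher direction was seen for 5 of the 11, and for 12.5% of all genes tested. Without sham replicate 1 the matrix list had 8 of 11 genes above 0 and a median of 1.30.

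Immediate early genes had 17 of 18 tested members above 0 with a median of 0.97, and 0 passed; 6 of the 18 were tested only through the 24 h arrays. This rested on 1 sham array: without sham replicate 1, 9 of 18 lay above 0 and the median was 0.05. Btg2, an antiproliferative early gene, lay at 12.05, 12.45 and 12.49 at 24 h and 10.03 and 10.71 in sham (1.96 ± 1.12, adjusted p = 0.429). Of 13 inflammatory cytokines and feedback inhibitors, 10 lay above 0 (median 0.87) and 0 passed. Without sham replicate 1 their median was 0.08. Tnfaip3, the ubiquitin-editing inhibitor A20 of NF-kB signalling, lay at 9.48, 12.20 and 10.26 at 24 h and 6.71 and 7.99 in sham (3.29 ± 1.99, adjusted p = 0.468).

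Of 8 class II presentation genes tested, 7 lay below 0 with a median of -1.49, and 0 passed. Under the alternatives the median lay between -2.14, without 24 h replicate 9, and -0.64, without 24 h replicate 8. H2-Eb1, a class II beta chain, lay at 11.29, 5.69 and 10.72 at 24 h and 12.18 and 12.71 in sham (-3.21 ± 1.69, adjusted p = 0.366), and Cd74, the invariant chain, at 11.51, 9.76 and 12.11 at 24 h and 12.85 and 13.58 in sham. Replicate 8 was the lowest for both. Cd80, a costimulatory ligand of T cells, was the 1 member above 0, at 6.79, 7.17 and 9.10 at 24 h and 3.20 and 3.80 in sham (4.19 ± 1.44, adjusted p = 0.144). Of the 8 class II genes 2, Cd80 among them, were tested only through the 24 h arrays and 0 only through sham. Of 10 tissue macrophage genes 7 lay below 0 (median -1.15) and 0 passed. Under the alternatives this median lay between -1.72, without 24 h replicate 7, and -0.11, with array yield as a covariate; without 24 h replicate 8 it was -0.44. C1qa, a complement C1q chain of resident macrophages, lay at 10.23, 4.33 and 8.68 at 24 h and 10.50 and 9.98 in sham, Trem2, a lipid-sensing receptor, differed by 2.57 ± 1.88 and Cd81, a tetraspanin, by -2.32 ± 2.07. Trem2 was the 1 of the 10 tissue macrophage genes tested only through the 24 h arrays, and 1 was tested only through sham. Of 16 classical monocyte genes 9 lay above 0 (median 0.32), of 8 nonclassical monocyte genes 6 (median 0.77), and 0 passed in either list. Of these, 3 of the 16 and 2 of the 8 were tested only through the 24 h arrays, and 1 and 0 only through sham. Spn, the sialomucin CD43, differed by -2.67 ± 1.52, and Apoc2, the activator of lipoprotein lipase, by 2.19 ± 1.34.

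Oxidative phosphorylation genes had 28 of 29 tested members below 0 with a median of -0.90, and 0 passed. Ndufa10, a complex I subunit that is not in this list, was among the called lower genes (-6.62 ± 1.53, adjusted p = 0.0416). It was tested only through sham and is named after its value was seen. After centring, 18 of 29 lay below 0, and the list median was -0.37 where that of all genes was 0.42. With array yield as a covariate 14 of 29 lay below 0 and the list median was 0.0063, where that of all genes was also 0.42. Over the 20 alternatives the list median minus the median of all genes lay between -0.95 and -0.33. Without 24 h replicate 8 the list median was -0.48. Sdha, a subunit of succinate dehydrogenase, lay at 8.41, 3.85 and 6.57 at 24 h and 9.00 and 9.56 in sham (adjusted p = 0.302), and Ndufs1, a complex I subunit, at 3.18, 3.89 and 3.44 at 24 h and 7.04 and 5.36 in sham. Ndufs1 was the 1 member of the list tested only through sham. Of 13 unfolded protein and heat shock genes 9 lay below 0 (median -1.07), and Hsp90b1 was the 1 that passed, where 1.84% of all genes passed as lower. Of the 13, 4 were tested only through sham and 1 only through the 24 h arrays. Dnajb1, an HSP40 chaperone, differed by -4.33 ± 1.79 and Pdia6, a disulfide isomerase, by -2.91 ± 1.33. On these probe sets replicate 7 kept both genes present while replicates 8 and 9 did not. The second probe set of Dnajb1, present on 2 arrays at 24 h and 1 in sham, had a difference of 1.27.

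Lipid handling genes were split, with 5 of 12 above 0 and 7 below (median -0.22), and Lpl was the 1 that passed, where 1.84% of all genes passed as lower. Olr1 and Lipg, which were called higher, are not in this list. Vldlr, a lipoprotein receptor, lay at 3.19, 2.74 and 2.49 at 24 h and 6.65 and 8.80 in sham (-4.92 ± 1.51, adjusted p = 0.0948), and Scd2, a fatty acid desaturase, differed by -4.58 ± 1.48. Hilpda, a hypoxia-induced lipid droplet protein, lay on the other side, at 10.70, 13.05 and 10.90 at 24 h and 8.26 and 7.48 in sham (3.68 ± 1.36, adjusted p = 0.176). Hypoxia and glycolysis genes were split likewise, with 8 of 17 above 0 and 0 passing. Ndrg1, a stress-responsive protein, lay at 8.85, 7.79 and 4.54 at 24 h and 12.00 and 12.78 in sham (-5.33 ± 1.78, adjusted p = 0.129), while Ero1a, an oxidase of the endoplasmic reticulum, differed by 4.21 ± 2.00. Of 16 iron, heme and oxidative stress genes 8 lay above 0 and 0 passed. Cat, catalase, lay at 10.83, 1.97 and 3.23 at 24 h and 11.82 and 12.47 in sham (-6.80 ± 2.20, adjusted p = 0.114), with replicate 7 near sham and the other 24 h arrays absent. Tfrc, the transferrin receptor (-5.60 ± 2.18), and Nqo1, a quinone reductase (-3.83 ± 1.52), were low at 24 h without passing. Of the 12 lipid genes, 3 were tested only through the 24 h arrays and 3 only through sham. For the 17 hypoxia genes these numbers were 1 and 3, and for the 16 iron genes 5 and 3. Lpl, Vldlr, Scd2, Cat, Tfrc and Nqo1 were tested only through sham and Ero1a only through the 24 h arrays, so their differences were partly set by the filter. The medians of the lipid, hypoxia and iron lists changed sign in 5, 5 and 6 of 20 alternatives.

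The remaining lists held few or no calls. Of 13 interferon-stimulated genes 6 lay above 0 (median -0.25), with Bst2, the virus-tethering protein tetherin, at -2.74 ± 1.71 and Ifitm1, an antiviral membrane protein, at 1.44 ± 1.07. Efferocytosis and scavenger receptors had 6 of 8 above 0 (median 0.71), with Lrp1, a large endocytic receptor, at 3.82 ± 1.41, and integrins and adhesion genes 8 of 10 (median 0.74). Of these, 3 of the 8, Lrp1 among them, and 4 of the 10 were tested only through the 24 h arrays, and 1 and 2 only through sham. Lysosome genes had 8 of 17 above 0 (median -0.17), ribosomal proteins 7 of 22 (median -0.11) and cell cycle genes 2 of 4 (median 0.19), with 0 passing in each of these 6 lists. The called scavenger receptor gene Olr1 is not in these lists. Nor is Dnase2a, a lysosomal nuclease gene called lower at 24 h (-4.94 ± 1.17, adjusted p = 0.0416) and tested only through sham. Of 20 alternatives, 6 turned the sign of the interferon median, 3 that of integrins, 10 that of lysosome, 7 that of ribosomal and 5 that of cell cycle genes. Markers of other leukocytes were sparse. T, B and NK cell, dendritic cell, and eosinophil and mast cell lists had 0 to 4 members present on any of the 5 arrays, and Cd79a and Ncr1 were absent on all 5. Of 12 endothelial genes 1 or 2 were present on each array; Ehd3, an endothelial trafficking protein, was absent at 24 h (3.40, 4.07 and 2.33) and at 6.54 and 6.87 in sham (-3.44 ± 0.95, adjusted p = 0.0689).

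**Figure D5:**
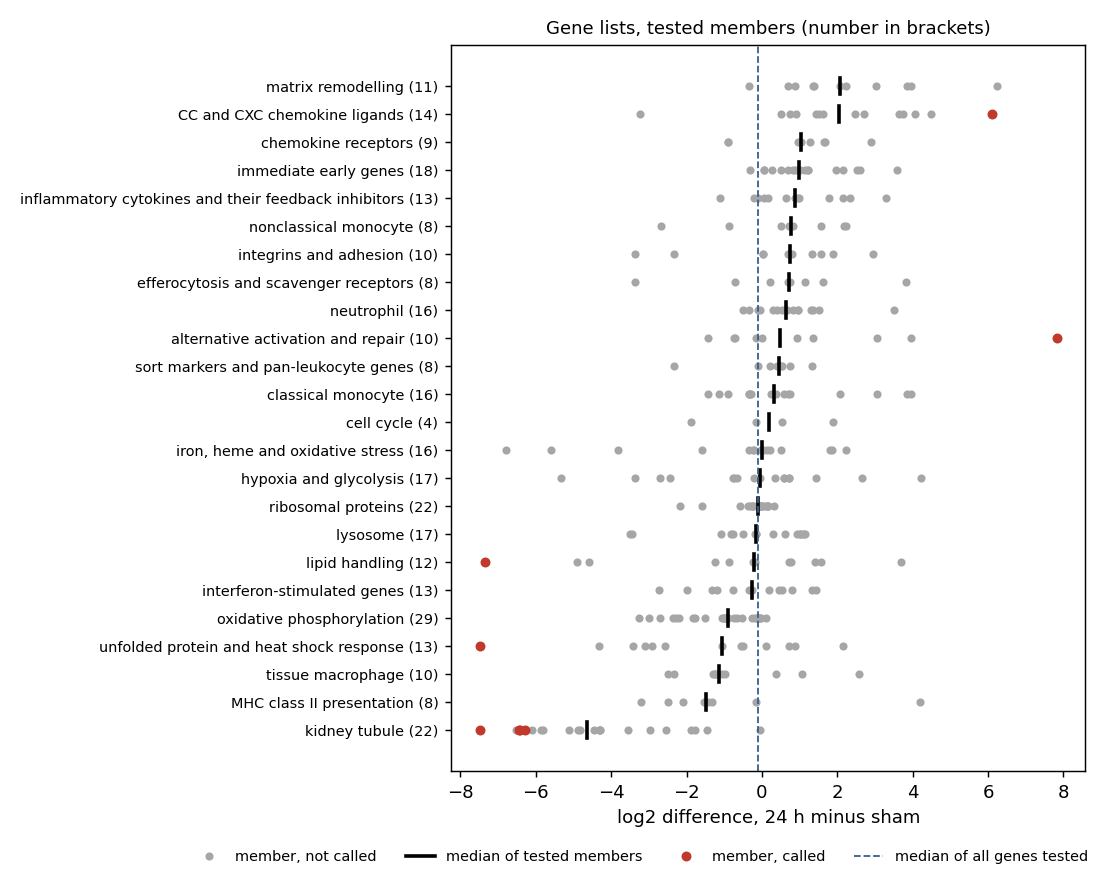
Log2 differences of 24 h minus sham (x axis) for the tested members of each gene list with at least 4 tested members (y axis, number tested in brackets). Red points were called, grey points were not, black bars are list medians and the dashed line is the median of all genes tested, -0.11. The kidney tubule list lies lowest, with a median of -4.65, and the matrix and chemokine ligand lists highest, with medians of 2.07 and 2.04.

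Against the other times in the same gate, 24 h differed from 4 h in 13 genes, 6 higher (0.155%) and 7 lower (0.181%), and from 9 days in 76 genes, 75 higher (1.94%) and 1 lower (0.0259%), with 3 arrays in each group. These comparisons share the 24 h arrays with the one against sham. Replicates 8 and 13 of the 9 day group had under 5% of probe sets present, and without the 3 arrays of low yield the second comparison gave 8 genes. Bcl2l15 was high only on the 24 h arrays among the 11 arrays of this gate: it was absent at 4 h (2.45, 2.50 and 2.15) and at 9 days (3.30, 2.45 and 2.37). Arg1 was present on 1 of 3 arrays at 4 h (7.68) and on 1 of 3 at 9 days (11.19), and its 24 h values did not pass against either time (adjusted p = 0.149 and 0.161). Among the lower genes, Lrp2 was absent at 4 h (4.12, 2.62 and 3.22) and at 9 days (3.99, 3.14 and 3.06), as at 24 h. Slc17a1 was still present at 4 h, at 10.08, 11.46 and 10.53. Tubule genes called present numbered 12 to 18 of 23 on the 4 h arrays, 4 to 13 on the 24 h arrays and 0 to 5 on the 9 day arrays, against 22 in sham.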

How the data were processed

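The 5 arrays compared were grouped by source name. The authors made the deposited log2 values with RMA in Affymetrix Expression Console, per the submitters' processing notes, which give no versions. The deposited signal intensities are on a linear scale and the deposited detection calls (present, marginal, absent) are another output of the same arrays; their algorithm is not stated in these sources. Summed levels are sums of 2 to the power of the deposited log2 values, not of the signals.

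Of 45101 probe sets 34958 had exactly 1 gene in the platform annotation, 932 had several and 9211 were not listed. They covered 18194 genes, and the probe set with the highest mean over the 21 arrays stood for its gene. A group-means model over 21 arrays in 8 groups was fitted with limma 3.58.1 in R 4.3.3 (13 residual and 5.49 prior degrees of freedom, median residual SD 1.91), two-sided, with Benjamini-Hochberg adjustment over the 3860 genes tested. Arrays labelled sham 58 High, which share 1 label, and a reference RNA stayed out. ± beside a difference is the model's standard error, and beside a mean the SD. The script was tested on simulated data. The number of arrays limits the precision.

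The members and the 32 gene lists were chosen with earlier results of these data known. Named genes were the up to 15 largest called differences per direction without overlap, leaving out clone and model names such as Rik symbols (with fewer, also the next smallest p, up to 10), up to 4 members of smallest p per list, every sort marker, and up to 5 called genes that differed from 4 h or 9 days. S100a8, S100a9, Csf3r, Igfbp1, 2610005L07Rik, Ndufa10, Dnase2a, Umod, Aqp1, Kap, Gpx3, Fxyd2 and the members of the 4 groups of lower genes were named outside this rule. Lists are described by counts and medians, without a set test. They do not hold every gene of their kind, so further genes of that kind can be among the calls. Of 20 alternatives, those without sham replicate 1 and the arrays of low yield, and without all arrays of sham animal 1, were chosen after seeing the data.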

Additional observations from a re-analysis of the deposited data

Results flagged for a closer look

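The genes below passed both against sham and in the direct test of 24 h against another time in the same gate. That is the test of the difference between the effects of both times against the shared sham arrays. For each time, at most 5 such genes, those of smallest p, are described in full. Against 4 h, Bcl2l15 was higher at 24 h by 7.45 ± 0.80 (log2 ± SE, limma adjusted p = 8.48e-05) and Lipg by 6.38 ± 1.00 (adjusted p = 0.0069). Slc17a1 fell by 7.62 ± 1.21 (adjusted p = 0.0069), Ugt2b38 fell by 6.81 ± 1.23 and Egf fell by 7.80 ± 1.42 (adjusted p = 0.0161 each). Egf lay at 4.26, 5.06 and 3.32 at 24 h and at 12.77, 12.07 and 11.20 at 4 h, so the 4 h arrays lay within or above the range of sham. In all, 3 higher and 6 lower genes passed both against sham and against 4 h. Those not described in full include Olr1, higher than at 4 h by 6.67 ± 1.35 (adjusted p = 0.038). Against 9 days, Bcl2l15 was higher by 7.11 ± 0.80 (adjusted p = 1.73e-04), Lipg by 6.42 ± 1.00 (adjusted p = 0.0058), Olr1 by 5.33 ± 1.35 (adjusted p = 0.0464) and Ctnnbip1 by 4.22 ± 1.07 (adjusted p = 0.047). Fam120a, an RNA-binding scaffold protein, fell by 5.72 ± 1.23 (adjusted p = 0.027), with 5.56, 4.81 and 2.45 at 24 h and 10.52, 8.57 and 10.90 at 9 days. The 9 day values include replicates 8 and 13, the arrays with under 5% of probe sets called present.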

How the results depend on the processing

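No paired analysis was possible because the groups share no replicate numbers (7, 8 and 9 at 24 h, 1 and 2 in sham). With animal as a random block, where arrays of 1 animal had an estimated correlation of -0.033, 79 genes passed against sham, all of them among the 80. The count of 80 genes against sham became 18 in the deposited signals, 47 after quantile normalization, 27 after centring, 43 without the filter, 20 in the 11 Intermediate arrays and 155 without the 3 arrays of low yield. In limma on the 5 arrays alone it was 0, with 574 genes at an unadjusted p under 0.05. It was 2 to 51 when 1 array was left out, and 20 without every array of sham animal 1. A group left with 1 array is assumed to vary like the others. Against 4 h the count of 13 became 3 (signals), 31 (centring), 7 (Intermediate arrays), 42 (without low yield), 20 (yield covariate) and 43 (without low yield and sham replicate 1), and lay between 10 and 22 with 1 array left out. Against 9 days the count of 76 became 0 in the signals (571 genes at an unadjusted p under 0.05 in limma), 1 (centring), 12 (Intermediate arrays), 8 (without low yield), 631 (array weights), 175 (yield covariate), 7 (without low yield and sham replicate 1) and 116 (without sham animal 1), and 17 to 65 with 1 array left out. Among genes that were not called, the difference changed sign for Csf1r (-0.54 with averaged probe sets; -1.37 to 2.86 with 1 array left out, the lowest without sham replicate 1, also with the further arrays left out), Spi1 (-0.17 to 0.94 likewise), Lyz2 (0.40 in the signals, 0.42 after centring, 0.053 with array weights, 0.53 with the covariate, -0.80 to 0.59 with 1 array left out, above 0 without 24 h replicate 8 and without sham replicate 1), S100a8 (0.63 in the signals, 0.43 after centring), S100a9 (0.59 and 0.47) and Csf3r (0.023 after centring). The causes were not tested. Transcripts under the detection call on every array of a group have only a bound there, which limits 67 of the 80 folds.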
